A study of Mus musculus with 13 samples.

Results

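The 31 genes described here are Trp53, which codes for the tumour suppressor p53, the inhibitors that hold p53 in check, genes that p53 is known to activate, and the inhibitors of cyclin-dependent kinases (CDKs) that stop cells from dividing. They were taken as a named list and not by a cut on their values, but earlier results of these data were known when it was chosen. All 31 of them are among the 19838 genes of each count table. Their transcripts were counted in 13 libraries of aorta and gastrocnemius, a muscle of the calf, from mice aged 88 weeks on an FVBxC57BL/6 background. The 2 aorta and 3 muscle libraries called dNdK are from mice labelled GFP-FOXM1dNdKtg/+ Rosa26-rtTAtg/+, whose transgene codes for a version of FOXM1, a transcription factor of dividing cells, joined to GFP. The 4 aorta and 4 muscle libraries called Rosa26 are from mice labelled GFP-FOXM1dNdK-/- Rosa26-rtTAtg/+, which lack that transgene. All groups carry Rosa26-rtTA, a transactivator that switches on its target transgene in the presence of doxycycline. The labels name no doxycycline treatment, no sex and no sequencing run, and do not say which cells express the transgene. By its title the series asks whether more FOXM1 delays ageing, and the arrest genes described here are among those used to follow senescence in aged tissue.

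In unstressed cells p53 is kept low by the ubiquitin ligase Mdm2 and its relative Mdm4. DNA damage and other stress release p53 from them, and it then binds paired decamers near its target genes, which include Mdm2 itself, the CDK inhibitor Cdkn1a (p21), repair genes and genes that promote cell death. CDK inhibitors keep the retinoblastoma protein Rb1 bound to E2F factors, which holds a cell out of the cycle, and Cdkn2a (p16 and p19) and Cdkn1a are widely used marks of senescent cells. In skeletal muscle Cdkn1a and Gadd45a are also known to rise in differentiating, denervated or wasting fibres.

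The tables held 3919526 to 13683952 gene counts per library. Levels below are in CPM, read counts brought to a common library size by TMM, which corrects for a few genes taking up much of a library. Foxm1 itself had 2 and 5 counts in dNdK aorta against 2 to 24 counts in Rosa26 aorta, and 0 to 3 counts in dNdK muscle against 1 to 3 counts in Rosa26 muscle, so every muscle value lies at or under the 3 counts taken as the floor of detection. It is not stated whether its amplicon reads the transgene. The fast muscle myosin Myh4 stood at 33292 to 59598 CPM over the muscle libraries and at most at 1.93 CPM over the aorta libraries. The aorta label was checked against 8 smooth muscle markers. Their sum was 270 to 463 CPM in aorta and 5083 to 8133 CPM in muscle, against the order of the label, and in muscle 4841 to 7826 CPM of it was desmin (Des), which skeletal muscle fibres also make. Of the 7 tested in Rosa26, 3 were higher and 2 lower in aorta. Acta2 stood at 65.9 to 247 CPM in aorta and at 49.5 to 139 CPM in muscle, Myh11 at 51.6 to 83.0 CPM in aorta and at 30.3 to 85.6 CPM in muscle, and Tagln at no more than 0.0549 CPM in aorta. In muscle too, 1 of the 8 markers had no count in each Rosa26 library. The aorta libraries held much RNA of fat: Ucp1, which lets brown fat burn fuel as heat, reached 3762 to 6991 CPM in each of them. Of the aorta libraries, dNdK 2, Rosa26 1 and Rosa26 2 also held 3080, 2860 and 1241 CPM of 10 heart muscle markers, against at most 12.6 CPM in the others. Muscle dNdK 3 held fat RNA too, with a sum over 8 adipocyte markers of 13854 CPM against at most 1155 CPM in the other muscle libraries.

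Of the members, 24 averaged 5 CPM or more over all libraries. Cdkn1a, Cdkn1c (p57), Ccng1, Phlda3, Ei24 and Aen were counted in every library well above the floor. Pmaip1 (Noxa), which neutralises survival proteins of the Bcl-2 family, had at most 4 counts in any library. Cdkn2a and Cdkn2b (p15) had 0 to 61 and 0 to 23 counts, and in muscle they had at most 12 counts in any library. One count covers both products of Cdkn2a, and the counts of Rb1 may include reads of Lpar6, a gene that lies inside it. Each gene was read through its own amplicon, so levels are compared between libraries and not between genes.

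**Figure D1:**
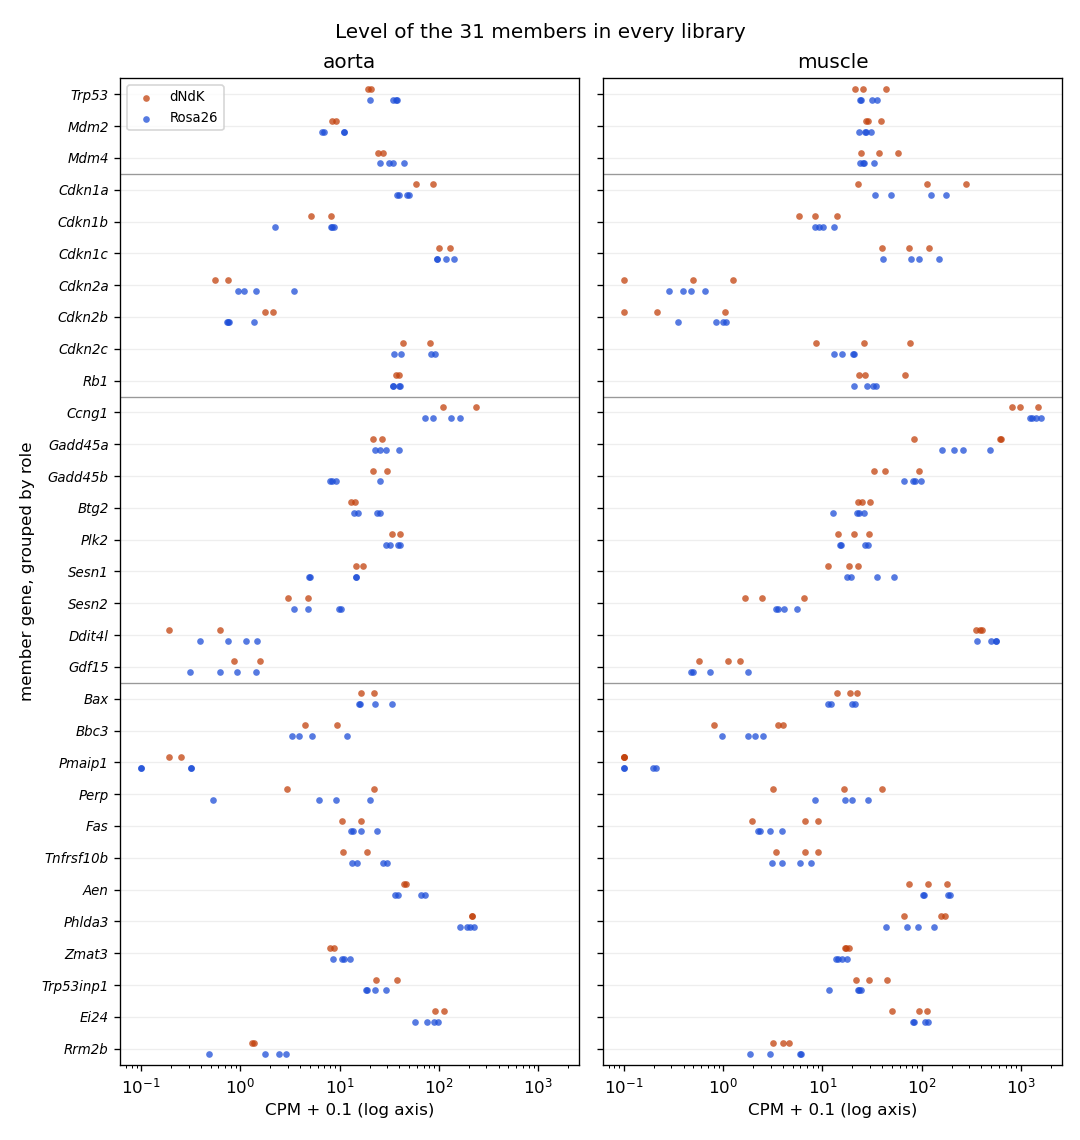
Level of each of the 31 members in every aorta library (left) and muscle library (right), as CPM plus 0.1 on a log axis, with 1 point per library, dNdK in orange above Rosa26 in blue, and grey lines between groups of roles. The points of the 2 genotypes overlap for most members, while Ddit4l, Ccng1 and Gadd45a lie far lower in aorta than in muscle.

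The promoters of 5 members are shown because these genes turned out to differ between the tissues. Each of these promoters also holds a decamer of the kind that p53 binds in pairs, and pairs were not searched for. RefSeq on GRCm38.p6 gave promoters, from 250 bases before to 50 bases after the start, for 23 of the 31 members. Both strands were searched for a p53 half-site, the standard p53 decamer, allowing every base that its consensus allows and no mismatch. It was found in 11 of the 32 promoters of these members, which is 34.4%, against 8.36% of all 32851 promoters. Many members were listed as genes that p53 is known to activate, so this share is not independent of how they were chosen. The 2 Aen promoters overlap and share their half-site. The E-box CAGCTG, of the kind bound by muscle regulators, was found in 4 of the 32 (12.5%), against 16.3% of all promoters. Capitals mark both motifs, which do not overlap in these sequences. The sequences are those of Cdkn1a at its first start (chr17:29090729-29091028, plus strand), Mdm2 (chr10:117710709-117711008, minus strand), Ccng1 (chr11:40755237-40755536, minus strand), Gadd45a (chr6:67037358-67037657, minus strand) and Ddit4l (chr3:137623422-137623721, plus strand).
Cdkn1a: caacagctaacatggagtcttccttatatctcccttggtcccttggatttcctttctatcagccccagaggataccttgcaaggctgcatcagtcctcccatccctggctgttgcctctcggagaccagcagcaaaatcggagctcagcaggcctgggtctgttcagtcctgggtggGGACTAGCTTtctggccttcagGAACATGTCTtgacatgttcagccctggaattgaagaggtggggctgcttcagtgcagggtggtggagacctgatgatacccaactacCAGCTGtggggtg
Mdm2: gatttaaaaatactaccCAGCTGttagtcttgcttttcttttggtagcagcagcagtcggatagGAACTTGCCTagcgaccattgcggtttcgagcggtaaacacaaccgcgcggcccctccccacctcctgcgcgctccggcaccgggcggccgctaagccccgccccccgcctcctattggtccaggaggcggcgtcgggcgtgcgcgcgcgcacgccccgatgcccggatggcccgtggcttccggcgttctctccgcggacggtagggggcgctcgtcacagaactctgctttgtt
Ccng1: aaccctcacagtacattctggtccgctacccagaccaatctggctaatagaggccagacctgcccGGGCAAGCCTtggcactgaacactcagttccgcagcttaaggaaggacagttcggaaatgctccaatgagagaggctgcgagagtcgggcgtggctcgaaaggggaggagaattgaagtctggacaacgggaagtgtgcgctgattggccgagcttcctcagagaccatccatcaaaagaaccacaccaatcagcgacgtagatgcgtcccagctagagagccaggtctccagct
Gadd45a: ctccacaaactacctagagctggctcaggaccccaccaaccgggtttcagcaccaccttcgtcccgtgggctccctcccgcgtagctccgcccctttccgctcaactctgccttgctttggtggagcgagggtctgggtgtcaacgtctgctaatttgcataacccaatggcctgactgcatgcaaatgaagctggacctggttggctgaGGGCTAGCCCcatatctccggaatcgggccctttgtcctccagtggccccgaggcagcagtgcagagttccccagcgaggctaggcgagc
Ddit4l: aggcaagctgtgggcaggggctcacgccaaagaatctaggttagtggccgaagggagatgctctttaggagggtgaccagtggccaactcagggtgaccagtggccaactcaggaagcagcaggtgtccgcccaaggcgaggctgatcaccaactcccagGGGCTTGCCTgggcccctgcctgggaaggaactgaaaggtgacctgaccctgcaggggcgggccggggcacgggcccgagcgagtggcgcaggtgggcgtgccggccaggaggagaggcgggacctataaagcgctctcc
The Cdkn1a promoter at its first start holds 2 half-sites and 1 CAGCTG, the Mdm2 promoter holds 1 of each, and the others hold 1 half-site. The promoter at the second start of Cdkn1a, not shown, holds neither motif. A match describes the letters in this window and does not show that p53 binds there.

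In aorta, dNdK was set against Rosa26, and no member passed the threshold. Of 11920 genes tested with the edgeR quasi-likelihood test, 1 passed an adjusted p of 0.05 (0.00839%), and of the 30 members tested 0 did. Their estimates split into 14 higher and 16 lower in dNdK, and their median log2 fold change was -0.03, against -0.05 over all genes tested. At an unadjusted p under 0.05 there was 1 member, beside 5.98% of all genes, and DESeq2 called 13 genes but 0 members. With 2 dNdK libraries the design was coarse: on simulated data for this comparison, 59.2% of genes changed 4-fold were called and 6.25% of those changed 2-fold.

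Among the regulators, Trp53 stood at 19.3 and 20.4 CPM in dNdK aorta, against 20.03, 36.9, 37.9 and 34.2 CPM in Rosa26 aorta. The lowest Rosa26 library lies between the dNdK values, and the other 3 lie above them. Its log2 fold change was -0.70 (SE 0.31, adjusted p = 0.757, edgeR). Mdm2, a target and inhibitor of p53, stood at 8.19 and 9.05 CPM in dNdK aorta, against 10.9, 6.53, 10.9 and 6.83 CPM in Rosa26 aorta. Both dNdK values lie inside the Rosa26 range. That gives Mdm2 a log2 fold change of -0.04 (SE 0.34, adjusted p = 0.982, edgeR), and Mdm4, its relative, one of -0.40 (SE 0.28).

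Cdkn1a had the smallest p of the members in this comparison. It stood at 87.5 and 58.2 CPM in dNdK aorta, against 49.9, 39.6, 38.0 and 47.2 CPM in Rosa26 aorta. Both dNdK libraries lay above the 4 Rosa26 libraries. The log2 fold change was 0.74 (SE 0.25), with an unadjusted p of 0.0179 and an adjusted p of 0.757 (edgeR), and it ranged from 0.40 without dNdK 1 to 1.02 without dNdK 2.

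Cdkn2a and Cdkn2b, INK4 inhibitors that block CDK4 and CDK6, were scarce. Cdkn2a stood at 0.645 and 0.452 CPM in dNdK aorta, or 7 and 6 counts, against 1.33, 3.35, 0.976 and 0.854 CPM in Rosa26 aorta, or 18, 61, 14 and 4 counts. Cdkn2b lay the other way, at 2.03 and 1.66 CPM in dNdK aorta against 0.663, 1.26, 0.628 and 0.641 CPM in Rosa26 aorta. The groups did not overlap for either gene, but the log2 fold changes of -1.61 (SE 0.80) and 1.16 (SE 0.58) both had an adjusted p of 0.757 (edgeR). The log2 fold change of Cdkn2a was -0.94 once Rosa26 2 was left out and -0.48 once all 3 libraries holding heart RNA were. Groups that did not overlap were found for 3 members in all, 2 higher (Cdkn1a, Cdkn2b) and 1 lower (Cdkn2a), while 17.4% of all genes tested had such groups in this comparison, 9.19% higher and 8.24% lower. Cdkn2c (p18), the remaining INK4 member, gave -0.03 (SE 0.46), and Cdkn1b (p27), Cdkn1c and Rb1 gave -0.09, 0.03 and 0.03.

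Of the arrest and stress genes, Gadd45b, which is induced by stress and NF-kappaB, stood at 29.6 and 21.6 CPM in dNdK aorta. Its values in Rosa26 aorta were 8.18, 7.96, 9.13 and 25.2 CPM. Rosa26 4 is the exception there, lying between the dNdK libraries and far above the other 3. The log2 fold change was 1.06 (SE 0.48, adjusted p = 0.757, edgeR), and 1.59 (adjusted p = 0.406) without Rosa26 4. Sums over 20 immediate early and dissection stress genes were 491 and 450 CPM in dNdK aorta, against 423, 447, 682 and 993 CPM in Rosa26 aorta, again with Rosa26 4 highest. The part of handling stress in the Gadd45b values was not tested. Gdf15, a secreted stress signal, had 16 and 10 counts in dNdK and 1 to 19 counts in Rosa26, with a log2 fold change of 0.53 (SE 0.76). Ccng1, Sesn1 and Btg2 gave 0.59 (SE 0.40), 0.68 (SE 0.51) and -0.53 (SE 0.33), and none of them passed. Ddit4l, an inhibitor of mTORC1, gave -1.42 (SE 0.97) on 1 to 25 counts per aorta library, and Sesn2 gave -0.87 (SE 0.54), while Gadd45a, Plk2 and Zmat3 gave -0.28, 0.06 and -0.38.

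The estimates of the death and repair members ran between -0.52 for Tnfrsf10b, a death receptor for TRAIL, and 0.45 for Trp53inp1, a p53-induced nuclear protein. Bax, the pore-forming killer of the Bcl-2 family, gave -0.20 (SE 0.37), and Phlda3, an inhibitor of Akt, gave 0.12 (SE 0.22). Perp, a membrane protein of desmosomes, ranged from 0.427 to 22.1 CPM over the 6 aorta libraries, a spread within groups wider than that of 99.1% of genes at 5 CPM or more. It is named for this spread, after the values were seen. RNA of other kinds was also summed in the aorta libraries. Proliferation genes summed to 14.5 and 12.9 CPM in dNdK, against 44.1, 86.0, 45.3 and 24.8 CPM in Rosa26, and macrophage markers to 298 and 237 CPM in dNdK, against 618, 580, 486 and 307 CPM in Rosa26. Neither sum overlapped between the genotypes, in a comparison where groups did not overlap for 17.4% of all genes tested. The estimates of 11 of 11 proliferation genes and 9 of 9 macrophage markers tested were lower in dNdK, with 0 past the threshold. Sums of 9 B and plasma cell markers did overlap, at 69.5 and 28.2 CPM in dNdK against 169, 437, 183 and 12.4 CPM in Rosa26. The part of these cells in the member values was not tested. Without Rosa26 1 and 2 together, 1 of 28 members was called, Sesn1 (log2 fold change 1.73, adjusted p = 0.0469), beside 264 of 11189 genes. Without all 3 libraries with heart RNA, 0 of 30 members were called, with an adjusted p of 0.281 for Sesn1. Fewer cells of a type and less RNA per cell cannot be told apart in such bulk samples.

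In muscle, dNdK was likewise set against Rosa26, and no member passed. Of 10491 genes tested, 0 had an adjusted p under 0.05 with edgeR (0%), 792 (7.55%) had an unadjusted p under 0.05, and DESeq2 called 7. Of the 28 members tested, 0 were called by either tool and 0 had an unadjusted p under 0.05. Their estimates split into 18 higher and 10 lower in dNdK, and their median was 0.20 on the log2 scale, against 0.03 over all genes tested. No member had groups that did not overlap, while 5.96% of all genes did. Cdkn2a, Cdkn2b and Pmaip1 were too scarce to test.

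Several members varied widely between muscle libraries of the same genotype. Cdkn1a stood at 281, 22.9 and 114 CPM in dNdK muscle, against 33.8, 178, 123 and 48.5 CPM in Rosa26 muscle. The highest and the lowest of the 7 libraries are both dNdK, 12.3-fold apart. The log2 fold change was 0.56 (SE 0.77, adjusted p = 0.896, edgeR), and -0.48 without dNdK 1. The SD of log2 Cdkn1a within groups was 1.51 in muscle, wider than for 97.6% of genes at 5 CPM or more, and 0.32 in aorta.

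Gadd45a, a stress sensor that arrests cells and is known to drive muscle wasting, stood at 609, 83.3 and 631 CPM in dNdK muscle. In Rosa26 muscle it stood at 261, 489, 210 and 160 CPM. The same dNdK library, dNdK 2, was lowest of all 7 for both genes, and the other 2 were highest for Gadd45a. On the log2 scale the difference was 0.68 (SE 0.62), and the SD within groups of 1.28 was wider than for 96.6% of genes. Phlda3 stood at 156, 66.9 and 173 CPM in dNdK muscle and at 70.4, 91.9, 132 and 43.3 CPM in Rosa26 muscle. Gadd45a and Phlda3 are given for their spread, after the values were seen. The 3 libraries with the least Cdkn1a, which are dNdK 2, Rosa26 1 and Rosa26 4, were also those with the least Phlda3. Over the 24 members at 5 CPM or more the median SD within groups was 0.53 on the log2 scale in muscle, against 0.38 over the 8969 genes at that level, and in aorta it was 0.34 against 0.31.

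Some members were high in single muscle libraries that also held more RNA of other kinds. Muscle dNdK 1 had the highest Cdkn1a, Mdm2, Mdm4, Trp53, Trp53inp1 and Btg2 of the 7 libraries, 6 of the 28 members tested, as it had the highest value of 20.8% of all genes tested. It was lowest for 10 members (Ccng1, Cdkn1b, Cdkn1c, Cdkn2c, Ddit4l, Ei24, Perp, Plk2, Sesn1 and Sesn2) and for 23.3% of all genes. Both member counts are to be read against those shares. Its sum over 11 denervation and atrophy genes was 2323 CPM, against 867 to 1452 CPM in the other 6 libraries, with the atrophy ligase Fbxo32 at 1096 CPM against at most 511 CPM. It also held 197 CPM of B and plasma cell markers, against 3.52 to 32.4 CPM in the other libraries, and 74.1 CPM of proliferation genes against at most 15.5 CPM. The part of these in the levels of these members was not tested.

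Muscle dNdK 3, with its fat RNA, was highest of the 7 libraries in 9 of the 28 members tested. That count is to be read against the 21.5% of all genes tested in which it was highest. These are Bbc3, Cdkn2c, Fas, Gadd45a, Phlda3, Plk2, Rb1, Sesn2 and Tnfrsf10b. Cdkn2c, which is known to accompany fat cell differentiation, stood at 75.7 CPM there, against 8.56 and 26.4 CPM in the other dNdK libraries and 13.1 to 20.8 CPM in Rosa26 muscle. Its log2 fold change was 1.11 (SE 0.57) with this library and 0.01 without it. Rb1 stood at 68.4 CPM there and at 20.9 to 34.8 CPM in the other 6 libraries, and its log2 fold change of 0.49 (SE 0.38) became -0.19. The part of fat RNA in the levels of these members was not tested.

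**Figure D2:**
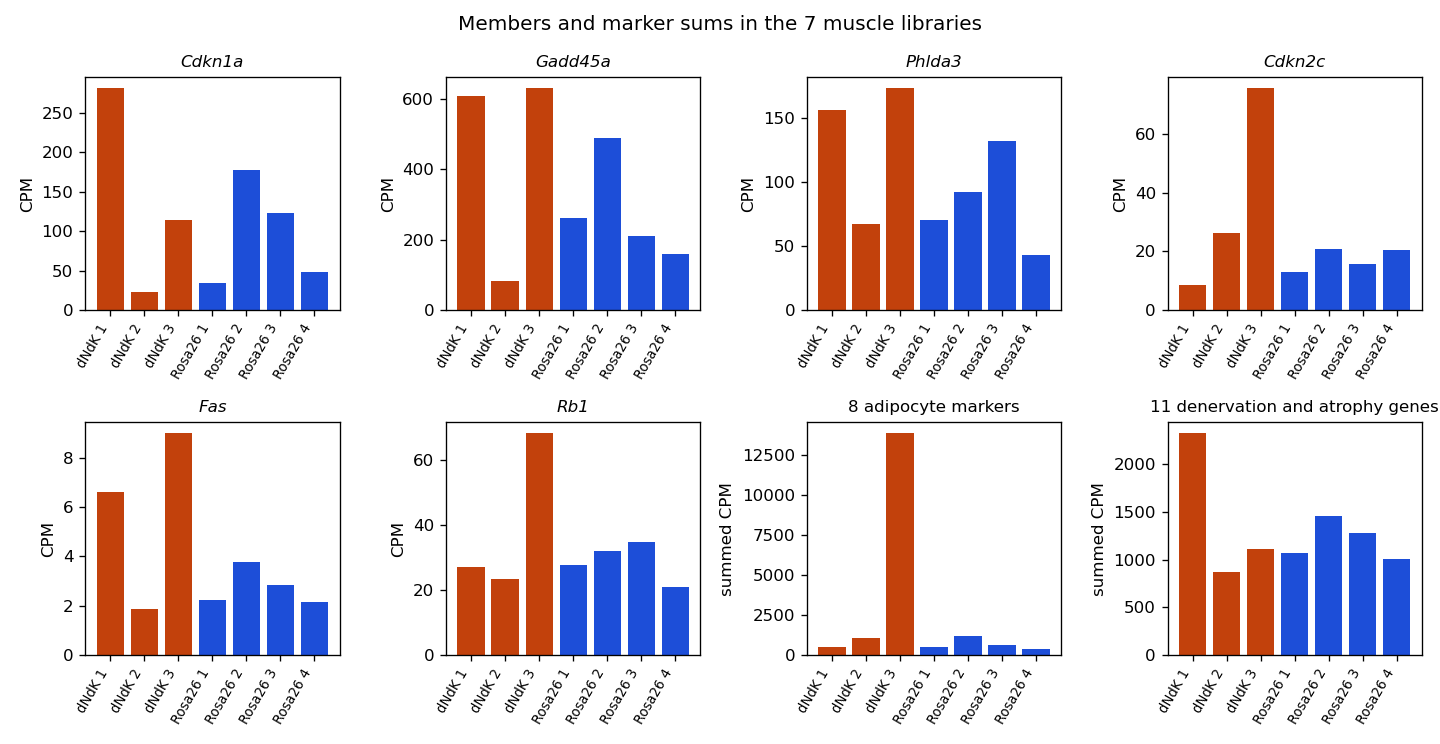
Level of 6 members and summed level of 2 marker lists in each of the 7 muscle libraries, in CPM on linear axes from 0, with dNdK libraries in orange and Rosa26 libraries in blue. Cdkn1a is highest in dNdK 1, where the denervation and atrophy genes sum to 2323 CPM, and Cdkn2c, Fas and Rb1 are highest in dNdK 3, where the adipocyte markers sum to 13854 CPM.

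The smallest p of a member in muscle belonged to Fas, the receptor that starts death signalling on binding Fas ligand. It stood at 6.61, 1.87 and 8.99 CPM in dNdK muscle, against 2.24, 3.78, 2.84 and 2.14 CPM in Rosa26 muscle. Of the dNdK libraries, 2 lay above all Rosa26 libraries and 1 below them. The log2 fold change was 1.10 (SE 0.52, adjusted p = 0.661, edgeR). Trp53inp1 gave 0.66 (SE 0.33), Sesn1, a sestrin that curbs mTORC1, gave -0.83 (SE 0.43), and Mdm4 gave 0.57 (SE 0.30), with adjusted p of 0.679, 0.684 and 0.689.

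Among the genes described in every comparison, Trp53 stood at 43.4, 21.3 and 25.5 CPM in dNdK muscle and at 31.8, 24.1, 23.8 and 35.1 CPM in Rosa26 muscle (log2 fold change 0.09, SE 0.29). Mdm2 stood at 39.1, 28.4 and 27.1 CPM in dNdK and at 31, 23.4, 27.5 and 26.7 CPM in Rosa26 (log2 fold change 0.24, SE 0.22). The groups overlap for both genes, and muscle dNdK 1 is the highest library in each. Gdf15 had at most 15 counts in a muscle library. Cdkn2a had 0, 10 and 5 counts in dNdK muscle and 1, 5, 3 and 3 counts in Rosa26 muscle, and it was not tested there.

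**Figure D3:**
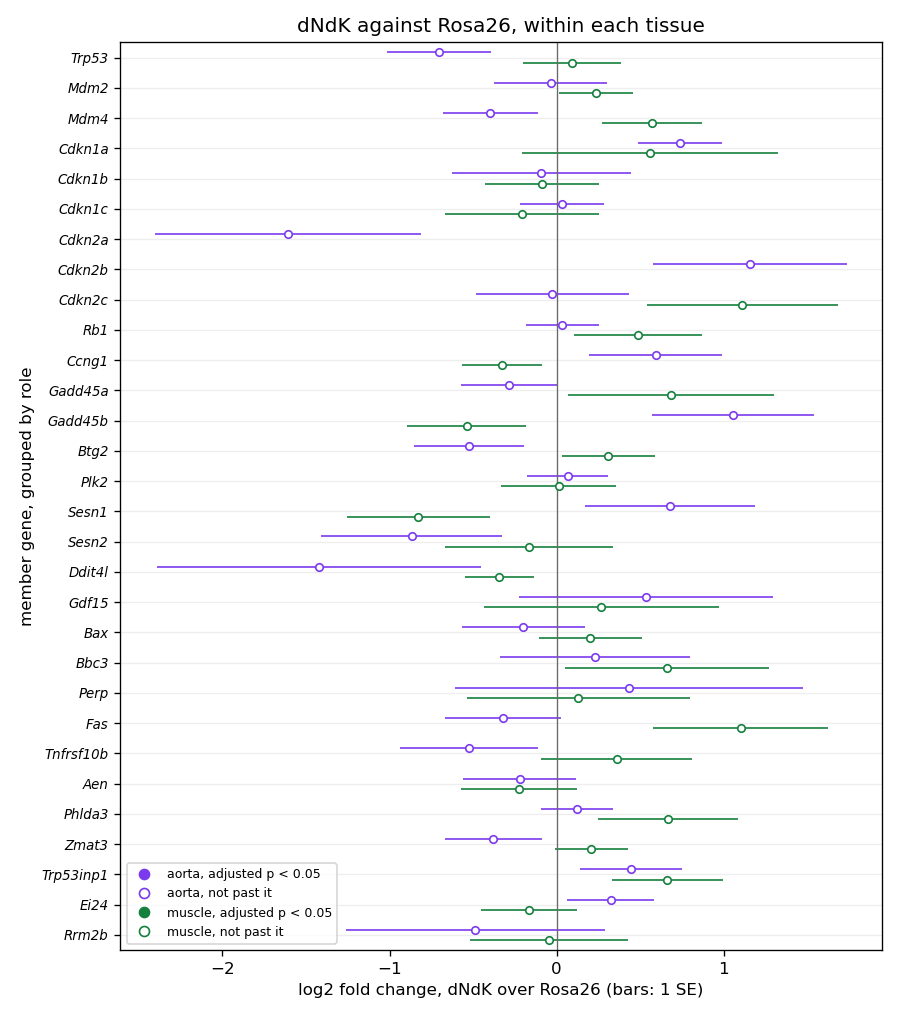
Log2 fold change of dNdK over Rosa26 for each member tested, in aorta (purple) and in muscle (green), with bars of 1 SE and filled points where the adjusted p was under 0.05. No point is filled, and Cdkn1a in aorta (0.74) has the smallest p.

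Whether the genotype acted differently in the tissues was tested as the log2 fold change of dNdK over Rosa26 in aorta minus that in muscle. Of 12318 genes, 0 passed with edgeR (0%), 1044 (8.48%) had an unadjusted p under 0.05 and DESeq2 called 6. Of the 30 members tested 0 passed with either tool, and 2 had an unadjusted p under 0.05. These were Gadd45b, whose difference was 1.62 (SE 0.65), made of 1.06 in aorta and -0.54 in muscle, and Mdm4 with -0.94 (SE 0.42). Both had an adjusted p of 0.583 (edgeR). The differences of Sesn1 and Fas were 1.53 (SE 0.71) and -1.39 (SE 0.66), and those of Cdkn1a, Cdkn2a, Mdm2, Trp53 and Gdf15 were 0.20, -2.17, -0.25, -0.76 and 0.28. Over the members the median was -0.39, against -0.10 over all genes.

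The tissues were then compared within Rosa26, 4 aorta against 4 muscle libraries. Of 11058 genes tested, 58.4% passed an adjusted p of 0.05 with edgeR, and of the 28 members tested 15 did. That share lies near the background, so the members did not stand out by how many differed. They split into 7 higher and 8 lower in aorta, where 31% of all genes were higher and 27.5% lower, and their median log2 fold change was 0.01 against 0.08. Groups did not overlap for 7 members higher and 8 lower in aorta, beside 52.8% of all genes, 26.9% higher and 25.9% lower. Scaling by library totals alone, without TMM, moved the median of all genes to 0.96 and that of the members to 0.89. It gave 16 members higher and 5 lower, beside 6254 higher and 1298 lower of the 11058 genes. Of the 15 calls, 10 held in each of 17 alternative settings: Ddit4l, Ccng1, Gadd45a, Gadd45b and Mdm2 lower in aorta, and Fas, Tnfrsf10b, Cdkn2c, Phlda3 and Bbc3 higher.

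Ddit4l, which is related to the mTORC1 inhibitor Ddit4, had the widest gap. It stood at 0.295, 1.37, 1.05 and 0.641 CPM in Rosa26 aorta, or 4, 25, 15 and 3 counts, against 496, 364, 555 and 554 CPM in Rosa26 muscle. Every muscle library lay far above the aorta libraries, of which Rosa26 4 was at the floor of 3 counts. It was lower in aorta by a log2 fold change of -9.10 (SE 0.45, adjusted p = 1.46e-07, edgeR).

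Ccng1, the p53-induced cyclin G1, stood at 161, 132, 72.5 and 87.1 CPM in Rosa26 aorta, against 1282, 1229.7, 1598 and 1426 CPM in Rosa26 muscle. Gadd45a stood at 39.6, 29.2, 22.5 and 25.2 CPM in aorta, against the 160 to 489 CPM of muscle. Neither gene overlapped between the tissues. On the log2 scale the differences were -3.61 (SE 0.30, adjusted p = 3.84e-06) and -3.26 (SE 0.36, adjusted p = 3.15e-05), both with edgeR. Gadd45b stood at 8.18, 7.96, 9.13 and 25.2 CPM in aorta and at 99.2, 85.3, 82.5 and 66.1 CPM in muscle, a log2 fold change of -2.77 (SE 0.37, adjusted p = 0.000125).

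Mdm2 stood at 10.9, 6.53, 10.9 and 6.83 CPM in Rosa26 aorta, against 31, 23.4, 27.5 and 26.7 CPM in Rosa26 muscle. The fold change of -1.61 on the log2 scale (SE 0.25, adjusted p = 0.000294, edgeR) came with no difference that passed in Trp53 (0.17, SE 0.25) or Mdm4 (0.32, SE 0.22), although under library totals alone Trp53 was higher in aorta (1.06, adjusted p = 0.00359). Trp53 itself stood at 20.03 to 37.9 CPM in aorta and at 23.8 to 35.1 CPM in muscle. Also lower in aorta were Aen, an apoptosis-enhancing nuclease (-1.47, SE 0.31, adjusted p = 0.00238), and Sesn1 (-1.67, SE 0.48, adjusted p = 0.0121), but neither passed under library totals alone (adjusted p = 0.091 and 0.185).

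Of the 7 members higher in Rosa26 aorta, 3 act in cell death: Fas, Tnfrsf10b and Bbc3. Fas stood at 16.2, 13.5, 23.7 and 13 CPM in aorta, against 2.24 to 3.78 CPM in muscle. Tnfrsf10b stood at 13.3, 15, 27.2 and 29.9 CPM in aorta, against 5.79, 3.78, 3.04 and 7.55 CPM in muscle. No values of either receptor overlapped, and the log2 fold changes were 2.59 (SE 0.31, adjusted p = 5.78e-05) and 2.09 (SE 0.38, adjusted p = 0.000882), both with edgeR. Bbc3 (Puma), a BH3-only killer, gave 1.75 (SE 0.49, adjusted p = 0.0112), and Phlda3 gave 1.22 (SE 0.30, adjusted p = 0.00602), with 206, 193, 165 and 224 CPM in aorta against 70.4, 91.9, 132 and 43.3 CPM in muscle.

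Of the CDK inhibitors, Cdkn2c stood at 90.7, 84.0, 41.1 and 35.2 CPM in Rosa26 aorta, against 13.1, 20.8, 15.6 and 20.4 CPM in Rosa26 muscle. It was higher by a log2 fold change of 1.85 (SE 0.33, adjusted p = 0.00087, edgeR). The 8 adipocyte markers summed to between 11987 and 17721 CPM in aorta of this genotype and to between 378 and 1155 CPM in muscle. Of the markers tested, 7 of 7 endothelial, 7 of 7 B and plasma cell and 8 of 9 macrophage genes were higher in aorta too, and the part of these cells in the member differences was not tested. Cdkn2a gave 2.18 (SE 0.60, adjusted p = 0.00999), on counts of 18, 61, 14 and 4 in aorta against 1, 5, 3 and 3 in muscle. With libraries paired by the number that the deposited names share it gave 1.85 (adjusted p = 0.0594), and without Rosa26 1 and 2 of aorta 1.28 (adjusted p = 0.172). Plk2, a kinase of centriole duplication, gave 0.70 (SE 0.26, adjusted p = 0.0403) and passed in 8 of 17 alternative settings. Its call was lost without Rosa26 1, 2 or 4 of aorta and without Rosa26 1 or 4 of muscle, with adjusted p between 0.06 and 0.116.

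The call of Cdkn1a was weak. Its level was 49.9, 39.6, 38.0 and 47.2 CPM in Rosa26 aorta and 33.8, 178, 123 and 48.5 CPM in Rosa26 muscle. The 4 aorta values lie close together, inside the range of the muscle values. Its log2 fold change of -1.14 (SE 0.45, adjusted p = 0.0482, edgeR) passed in 5 of 17 alternative settings, and with paired libraries it was -0.40 (adjusted p = 0.306). The call was lost without any 1 of the 4 aorta libraries and without Rosa26 2 or 3 of muscle, with adjusted p between 0.0713 and 0.172. The other 13 members tested did not pass: Bax, Btg2, Cdkn1b, Cdkn1c, Ei24, Mdm4, Perp, Rb1, Rrm2b, Sesn2, Trp53, Trp53inp1 and Zmat3. Of these, Zmat3, Cdkn1b, Ei24 and Btg2 had negative estimates that turned positive under library totals alone. Cdkn2b, Gdf15 and Pmaip1 were too scarce to test.

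In dNdK the same tissues were set side by side, 2 aorta against 3 muscle libraries, none of which is in the Rosa26 comparison. Of 11426 genes 15.8% were called with edgeR, 5.22% higher and 10.5% lower in aorta, and of 29 members 5 were called, all lower. Ddit4l stood at 0.0921 and 0.528 CPM in dNdK aorta, against 354, 407 and 385 CPM in dNdK muscle (log2 fold change -10.15, SE 0.75, adjusted p = 0.00224). Mdm2 gave -1.86 (SE 0.31, adjusted p = 0.016), Ccng1 -2.65 (SE 0.53, adjusted p = 0.0252), Gadd45a -4.19 (SE 0.96, adjusted p = 0.0354) and Zmat3, a zinc finger protein that p53 induces, -1.07 (SE 0.28, adjusted p = 0.0487). Zmat3 stood at 8.56 and 7.92 CPM in dNdK aorta and at 16.7, 18.3 and 17 CPM in dNdK muscle, and passed in 3 of 11 alternative settings. Groups did not overlap for 6 members higher and 10 lower, beside 57.9% of all genes, 28.5% higher and 29.4% lower.

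Of the 15 members called in Rosa26, 14 could be tested in dNdK, and all 14 had the same sign, as had 94.5% of all genes called in Rosa26. Among the members called higher in Rosa26 aorta, Fas gave 1.20 (SE 0.63), Tnfrsf10b 1.23 (SE 0.50), Cdkn2c 0.75 (SE 0.81), Phlda3 0.71 (SE 0.44), Bbc3 1.35 (SE 0.74) and Plk2 0.79 (SE 0.34) in dNdK, and none of them passed there. On simulated data for the tissues of dNdK, 0% of genes changed 2-fold were called and 16.3% of those changed 4-fold. That simulation left 10995 of 11191 genes unchanged, whereas 15.8% of all genes were called in the data. Its rates therefore need not hold for this comparison. The fat-bearing library muscle dNdK 3 is in this comparison. Without it 7 of 28 members were called, beside 3126 of 11188 genes, a like share. Of these members 6 were lower, with Aen added (-1.71, adjusted p = 0.0153), and Cdkn2b was called higher (adjusted p = 0.027) on 22 and 22 counts in aorta against 0 and 1 counts in the 2 muscle libraries left, under the floor of 3 counts, so no fold is given for it. Without aorta dNdK 1 or without aorta dNdK 2, 1 member was called, Ddit4l. The calls of Gadd45a and of Ccng1 were also lost without muscle dNdK 1 and without muscle dNdK 2, in that order, and that of Zmat3 without either. Cdkn1a gave -0.93 (SE 0.92), Trp53 -0.59 (SE 0.38) and Gdf15 0.25 (SE 0.72), and Cdkn2a was too scarce to test.

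**Figure D4:**
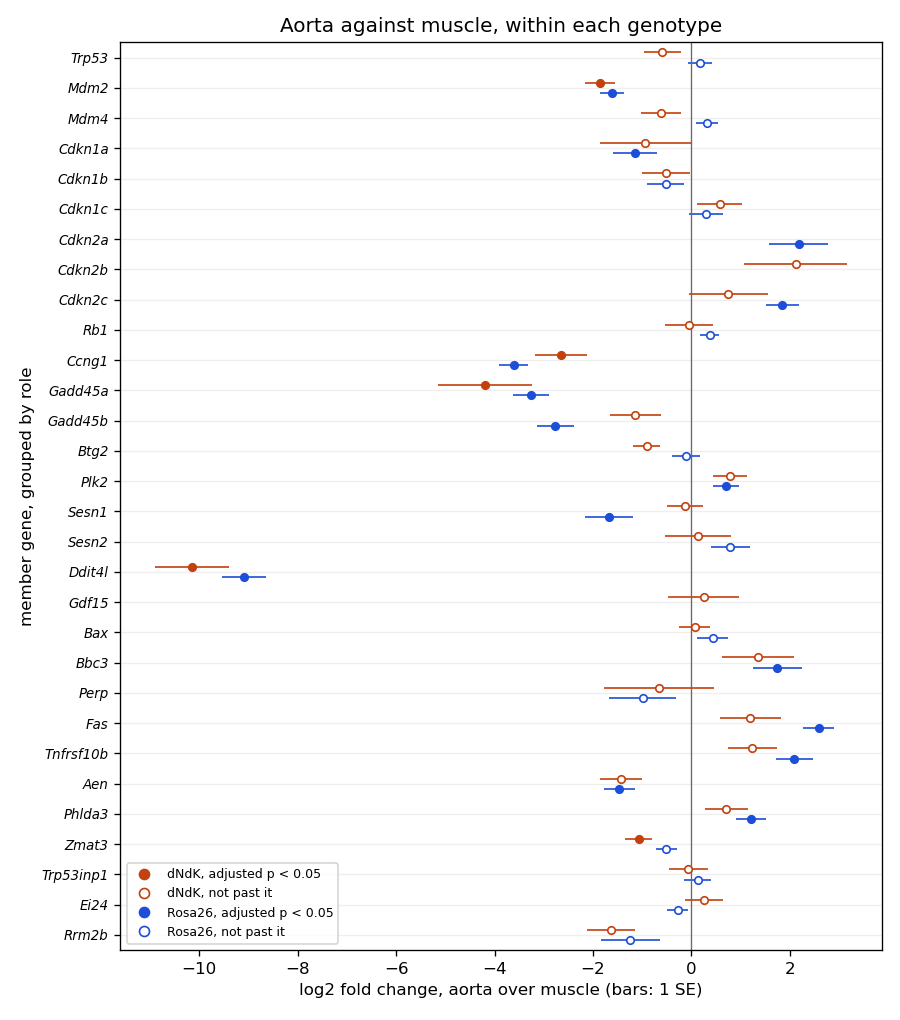
Log2 fold change of aorta over muscle for each member tested, in dNdK (orange) and in Rosa26 (blue), with bars of 1 SE and filled points where the adjusted p was under 0.05. Ddit4l, Gadd45a, Ccng1 and Mdm2 are filled in both genotypes and lower in aorta, and Fas (2.59) and Tnfrsf10b (2.09) are filled in Rosa26.

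Set beside the promoters shown above, the members lower in Rosa26 aorta mostly held an exact p53 half-site, and those higher did not. Of the 8 members called lower there, all have a promoter entry, and 7 hold a half-site: Ddit4l, Gadd45a, Aen, Sesn1, Mdm2, Ccng1 and Cdkn1a. A gene counted if any of its promoters held a half-site, and Cdkn1a at its second start and Sesn1 at its first hold none. Of the 7 called higher, 6 have an entry and 0 hold one, and of those not called 3 of 7 do (Bax, Ei24 and Trp53). Over all genes the shares lay closer together, with a half-site in 9.34% of the genes lower in aorta, 8.39% of those higher and 7.53% of those not called. This split was noticed after the values were seen, and it rests on 14 genes. Near matches, such as CGACTTGTCC in the first Bbc3 promoter, were not counted. Cdkn2a and Cdkn2c, both among those higher, are on the list as CDK inhibitors. Among the 14 genes, Aen, Sesn1 and Cdkn1a lost their lower call under library totals alone. Cdkn2a and Plk2 lost their higher call in some other settings. CAGCTG was present in 2 of the 8 lower members (Mdm2 and Cdkn1a) and in 0 of the 6 higher ones, beside 20.6% and 19.5% of all genes lower and higher.

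Further genes of the pathway were taken from lists. In the genotype comparisons 0 genes of these lists passed in either tissue. Ccnd2, a D-type cyclin, had the smallest p among them in aorta, at 17.4 ± 1.2 CPM in dNdK (SD, n = 2) and 37.4 ± 8.4 CPM in Rosa26 (SD, n = 4), with a log2 fold change of -1.11 (SE 0.29, adjusted p = 0.757, edgeR).

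Between the tissues of Rosa26 the counts of each list are read beside the 31% of all genes that were higher and the 27.5% that were lower in aorta, and no test compared the lists. Of 13 further death targets of p53, 10 were higher and 2 lower in aorta, among them Casp8, the initiator caspase of the death receptors, at 2.39 (SE 0.28, adjusted p = 4.98e-05), and Bcl2l1, which opposes Bax, at 1.28 (SE 0.20, adjusted p = 0.000286). Their median log2 fold change was 1.96, against 0.08 over all genes. The list was chosen with earlier results of these data known. Of the markers tested, 7 of 7 endothelial, 8 of 9 macrophage and 8 of 8 adipocyte genes were also called higher in aorta. The part of those cells in the levels of the death targets was not tested. Of 9 regulators of p53, 0 were higher and 4 lower, among them Trp53bp1 at -0.94 (SE 0.22) and Usp7 at -0.81 (SE 0.18). Of 8 secreted and metabolic targets 3 were higher and 1 was lower, Tigar, which lowers glycolytic flux, at -3.19 (SE 0.30, adjusted p = 9.16e-06), and of 11 arrest and repair targets 3 were higher and 1 lower.

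The pocket protein and cyclin D list had 9 of 19 genes higher and 5 lower in Rosa26 aorta. Cdk6 was higher by 4.10 (SE 0.38, adjusted p = 8.88e-06) and Ccnd3 by 2.49 (SE 0.27, adjusted p = 2.9e-05), and E2f6, a repressor, was lower at -2.84 (SE 0.22, adjusted p = 2.69e-06), all with edgeR on the log2 scale. Of 7 paralogs of members, 2 were higher and 3 lower: Ccng2 was higher by 1.13 (SE 0.21, adjusted p = 0.00105), against the -3.61 of Ccng1, and Sesn3 was lower at -1.20 (SE 0.33, adjusted p = 0.00923), on the same side as Sesn1. In dNdK 5.22% of all genes were called higher in aorta and 10.5% lower. Beside those shares, 6 of 21 genes of the pocket protein list passed, 3 higher and 3 lower, and of the further death targets 0 of 13 passed. Tigar was again lower (-2.82, SE 0.46, adjusted p = 0.0143, edgeR).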

How the data were processed

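Amplicon libraries of mouse aorta and gastrocnemius (13 libraries, AmpliSeq panel, Ion Torrent reads) were analysed as deposited read counts per gene. Per the submitters' processing notes, the authors used STAR 2.5.2b, edgeR 3.28.1 and limma 3.42.2 with mm10/GRCm38.p6. The deposited count tables hold 19838 genes, of which 2785 have no count in any library and 19636 matched RefSeq. The column over both strands was used, so sense and antisense reads cannot be told apart. The 4 summary lines of each table were left out, and 86.7% to 91.4% of its reads were assigned to genes.

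Computed here were TMM-scaled CPM and edgeR 4.0.16 quasi-likelihood tests (limma 3.58.1, R 4.3.3, DESeq2 1.42.0 as an alternative), fitted over all genes passing filterByExpr (minimum count 10, total 15), with Benjamini-Hochberg adjustment and a threshold of 0.05. Each comparison was fitted on its own groups, and the difference of genotype effects on all 13 libraries. SE is the log2 fold change divided by the square root of its F statistic. Without molecular identifiers, floors of 3 counts cover counting error only. Nothing says that libraries came from separate animals, so p-values measure the spread between these libraries, which may be technical. Depth was 3919526 to 13683952 counts.

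Samples were grouped by the tissue and genotype in their labels. The numbers in the titles were not taken as a pairing. In Rosa26, aorta and muscle libraries of 1 title number gave r = -0.37, 0.30, -0.38 and 0.30 for their deviations from the group means. The number that the deposited names share between an aorta and a muscle library was treated as a pairing in Rosa26. There the 3 pairs deviated together (r = 0.35, 0.38 and 0.30 across genes, which are not independent replicates). The pair of Rosa26 4 libraries is the same under both numbers. Whether the number in the names stands for the animal is not stated. The main tests are unpaired, and the value blocked on that number is given where it ends a call. The tests were checked on simulated data. In each comparison all members were accounted for and those past the threshold (up to 12), or else the 5 with the smallest p, were described, with Cdkn1a, Cdkn2a, Mdm2, Trp53 and Gdf15 always. From each further list up to 4 genes past the threshold, or the 1 with the smallest p, could be named. The members and lists were chosen with earlier results of these data known. Alternatives were other scalings, no filter, DESeq2, blocks, 1 joint fit and left-out libraries. Promoters are RefSeq's on GRCm38.p6, and Trp53inp1, Zmat3, Pmaip1, Perp, Tnfrsf10b, Rrm2b, Cdkn1c and Rb1 had no entry.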

Additional observations from a re-analysis of the deposited data

Results flagged for a closer look

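Of 61 groups of 4 libraries tested for a library far from the others of its group, 4 held one, and chance alone flags about 1 in 20 groups. Gadd45b stood at 25.2 CPM in aorta Rosa26 4, and the next library of that group was at 9.13 CPM. Cdkn1b, the CDK inhibitor p27, stood at 2.14 CPM in that same library, which was the shallowest, and the next was at 8.13 CPM. Cdkn2b stood at 1.26 CPM in aorta Rosa26 2, and the next was at 0.663 CPM. Trp53inp1 stood at 11.6 CPM in muscle Rosa26 3, and the next was at 22.6 CPM.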

How the results depend on the processing

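Of 962 alternative values, 873 counted as unchanged, 34 counts or medians moved, 32 calls were lost, 2 were gained and 21 turned sign. For a gene, unchanged meant the same sign and the same side of the threshold. For a count or a median it meant only a small change in size, so its direction could differ. For dNdK over Rosa26 in aorta the 1 gene called became 13 with DESeq2, 0 in 1 fit of all libraries, 264 without aorta Rosa26 1 and 2 together (1 member, Sesn1) and 30 without the 3 libraries with heart RNA. In muscle DESeq2 called 7 genes, and for the difference between tissues 6. Between the tissues of dNdK, 1801 genes and 5 members became 3141 genes and 8 members with DESeq2, and 3334 genes in 1 joint fit. Library totals alone moved the median of all genes between tissues to 0.96 in Rosa26 and 0.58 in dNdK, split the 7552 genes called in Rosa26 into 6254 higher and 1298 lower and the 2312 in dNdK into 1582 higher and 730 lower, and turned Trp53 in dNdK to 0.023 and the tissue differences of Cdkn1a and Gdf15 to -0.0068 and -0.027. The causes were not tested.

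With the replicate block on title numbers, which were not taken as a pairing, 163 genes and 1 member (Gadd45b, 1.63, adjusted p = 0.0321, edgeR) were called for genotype in aorta. Between the tissues of dNdK 3035 genes were called with it, and Mdm2 in aorta (0.020) and Cdkn1a in muscle (-0.019) turned sign. Blocked on the shared name number, the pairing chosen after seeing the data for the difference of genotype effects, 206 genes (3 higher, 203 lower) and 0 members were called there, Trp53 between tissues of Rosa26 was -0.013, and apart from Cdkn1a and Cdkn2a the pairing ended no call of a named member.

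Leaving out 1 library at a time gave these ranges. Genes called were 0 to 1 in aorta (0 without Rosa26 1, Rosa26 2 or dNdK 1), 0 to 3 in muscle (3 without dNdK 1), 5971 to 6440 between tissues of Rosa26 and 322 to 3126 between tissues of dNdK (322 and 369 without aorta dNdK 1 and 2, 690 and 3126 without muscle dNdK 2 and 3), with 0 members called for genotype in either tissue, 13 to 14 members between tissues of Rosa26 and 1 to 7 in dNdK. The log2 fold change of Mdm2 in aorta ran between -0.14 and 0.10, of Gdf15 in aorta between -0.024 and 0.97, of Cdkn1a in muscle between -0.48 and 1.06, of Trp53 in muscle between -0.28 and 0.29 and of Gdf15 in muscle between -0.028 and 0.60. Between the tissues of dNdK it ran between -0.31 and 0.64 for Gdf15 and between -1.45 and 0.10 for Cdkn1a, and the tissue difference between -0.30 and 1.22 for Cdkn1a and between -0.44 and 0.71 for Gdf15. Depth limits Cdkn2a, Cdkn2b, Pmaip1 and Gdf15, which had few counts, and 2 dNdK aorta libraries limit every comparison that uses them.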
